A study of Mus musculus with 32 samples.

Results

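Calcium handling genes of the neonatal mouse uterus were examined across 8 groups of uteri: S100g, Calb1, Trpv6, Atp2b1, Stc1, Stc2 and Pthlh. They were chosen by name, with earlier results of these data known, so counts of calls among them describe these genes alone. Their probes were those annotated to exactly 1 of these 7 symbols. Of the 45018 probes on the array, 20 met this rule and covered 6 of the 7 genes: 10 probes for Calb1, 4 for Atp2b1, 3 for Stc1 and 1 each for S100g, Trpv6 and Stc2. Pthlh, which encodes parathyroid hormone-related protein, had no such probe and was not analysed here. All 20 probes passed the filter on low values, although 1 Atp2b1 probe was above the floor on only 21 of the 32 arrays, and the 6 genes were tested among 17145.

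Total RNA of whole uteri, taken at 5 days of age from CD-1 females, was run on single-colour arrays, 1 per sample, with 4 biological replicates per group by the series design. In the Esr1 line there were conditional knockout (cKO) and wild-type uteri after diethylstilbestrol (DES), a synthetic estrogen, and cKO and wild-type uteri after vehicle. In the Foxa2 and Foxo1 lines there were cKO and wild-type uteri, and all of these had received DES. Esr1 is the gene of estrogen receptor alpha, while FOXA2 and FOXO1 are transcription factors with a forkhead domain. No source used here states the DES dose, the Cre driver or the cells that lost each gene, so the cKO groups are conditional deletions of unstated extent. The comparisons ask what DES did to these genes, how far that depended on Esr1, and whether loss of Foxa2 or Foxo1 changed their levels under DES.

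In calcium-transporting epithelia such as those of the intestine and kidney, calcium enters through channels of the TRPV family, is carried through the cytosol by calbindins and leaves through plasma membrane calcium pumps and sodium-calcium exchangers. The same proteins occur in the rodent uterus, where S100g, the small calbindin, is a classic estrogen-responsive gene. Stanniocalcins are secreted glycoproteins, known in fish as regulators of calcium uptake and in mammals as local factors of calcium and phosphate handling.

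The regions upstream of S100g, Trpv6 and Stc2 are shown because these are the 3 genes that DES raised. RefSeq (GRCm38.p6) gave a window around the annotated start for 5 of the 7 genes, S100g, Trpv6, Pthlh, Stc2 and Atp2b1. Each sequence below runs 5′ to 3′ on the minus strand, from 250 bases before the start through the first 20 bases from it, at chrX:162964580-162964849 for S100g, chr6:41636386-41636655 for Trpv6 and chr11:31370042-31370311 for Stc2. Capitals mark GGTCA or its complement TGACC (1 arm of the estrogen response element), GTAAACA (a forkhead motif) and TATAAA.
S100g: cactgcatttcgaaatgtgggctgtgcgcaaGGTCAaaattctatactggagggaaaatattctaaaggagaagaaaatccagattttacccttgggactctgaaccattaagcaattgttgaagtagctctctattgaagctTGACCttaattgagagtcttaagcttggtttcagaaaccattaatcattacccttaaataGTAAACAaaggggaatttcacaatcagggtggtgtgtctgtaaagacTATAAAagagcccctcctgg
Trpv6: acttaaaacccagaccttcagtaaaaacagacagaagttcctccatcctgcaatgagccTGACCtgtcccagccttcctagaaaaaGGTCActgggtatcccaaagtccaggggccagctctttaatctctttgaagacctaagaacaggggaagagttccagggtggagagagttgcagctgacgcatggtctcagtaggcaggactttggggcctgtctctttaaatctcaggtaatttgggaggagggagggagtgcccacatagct
Stc2: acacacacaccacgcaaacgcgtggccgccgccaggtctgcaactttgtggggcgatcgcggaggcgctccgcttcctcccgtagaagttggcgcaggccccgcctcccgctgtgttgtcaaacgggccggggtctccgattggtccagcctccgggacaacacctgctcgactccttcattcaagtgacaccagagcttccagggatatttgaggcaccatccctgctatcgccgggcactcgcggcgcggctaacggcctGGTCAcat

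S100g held GGTCA at -219 and TGACC at -107, GTAAACA at -47 and TATAAA at the annotated start. Trpv6 held TGACC at -191 and GGTCA at -164, and Stc2 held GGTCA at 13. Atp2b1, which DES lowered, held TGACC at 13 in a window not printed here. None of the windows of these genes held the complete estrogen response element, GGTCA and TGACC with 3 bases between them, which occurred in 0.07% of all 32851 windows. Among all windows, GGTCA was found in 40.5% and GTAAACA in 3.65% on either strand, and TATAAA in 8.32% on the given strand, so a single arm is a common match. These are matches of letters and not measured binding sites.

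Levels below are log2 intensities minus the 75th percentile of the array, and changes are log2 differences of group means ± SE from limma with 4 arrays per group. A gene was called at a Benjamini-Hochberg adjusted p under 0.05, and levels of different genes, which are read by different probes, are not set against each other. The 75th percentile lay between 697 and 1787 intensity units on all arrays except a pair: 551 on Esr1 wild type, vehicle, replicate 4 and 9024 on Foxa2 wild type, DES, replicate 1. On the array at 551, Xist, which silences an X chromosome in female cells, was at -2.35, against 3.56 to 4.02 on the other 3 of its group. None of 3 Y-linked genes looked at was above the floor on any array of that group. For the 6 genes, called values are also given without this pair where these arrays enter the comparison, and values of the targeted genes are with all arrays. All groups share 1 estimate of the spread, so the pair also bears on calls in comparisons that it does not enter. For DES in Esr1 cKO, 8.98% of all genes were called with the pair and 20.7% without it. The targeted genes were lower in their own knockouts after DES, Esr1 by -1.96, Foxa2 by -2.99 and Foxo1 by -2.64 (adjusted p = 0.000391, 4.47e-05 and 1.04e-09 from limma), while Esr1 after vehicle was at -0.74 with no call (adjusted p = 0.33). After DES, Foxa2 and Foxo1 were also lower in Esr1 cKO than in its wild type, at -3.26 and -0.53 (adjusted p = 3.2e-07 and 0.032 from limma). A difference between the falls of Foxa2 in the Foxa2 and Esr1 lines was not detected (0.28 ± 0.57, adjusted p = 0.788 from limma).

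In wild-type uteri of the Esr1 line, DES raised the calcium entry channel gene Trpv6, the calbindin gene S100g and the stanniocalcin gene Stc2. It lowered Calb1, which encodes the larger calbindin, the calcium pump gene Atp2b1 and Stc1. The called changes thus covered 3 genes upward and 3 downward among 6 tested. The background is high in this comparison, with 51.8% of all genes called, 21.5% higher and 30.3% lower (27.7% and 21% under median scaling), and 50.5% had groups that did not overlap. The median over the 6 genes was 0.85, against -0.16 over all genes tested. With the vehicle array at 551 and the Foxa2 array left out, all 6 were still called, where 63.2% of all genes were.

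**Figure D1:**
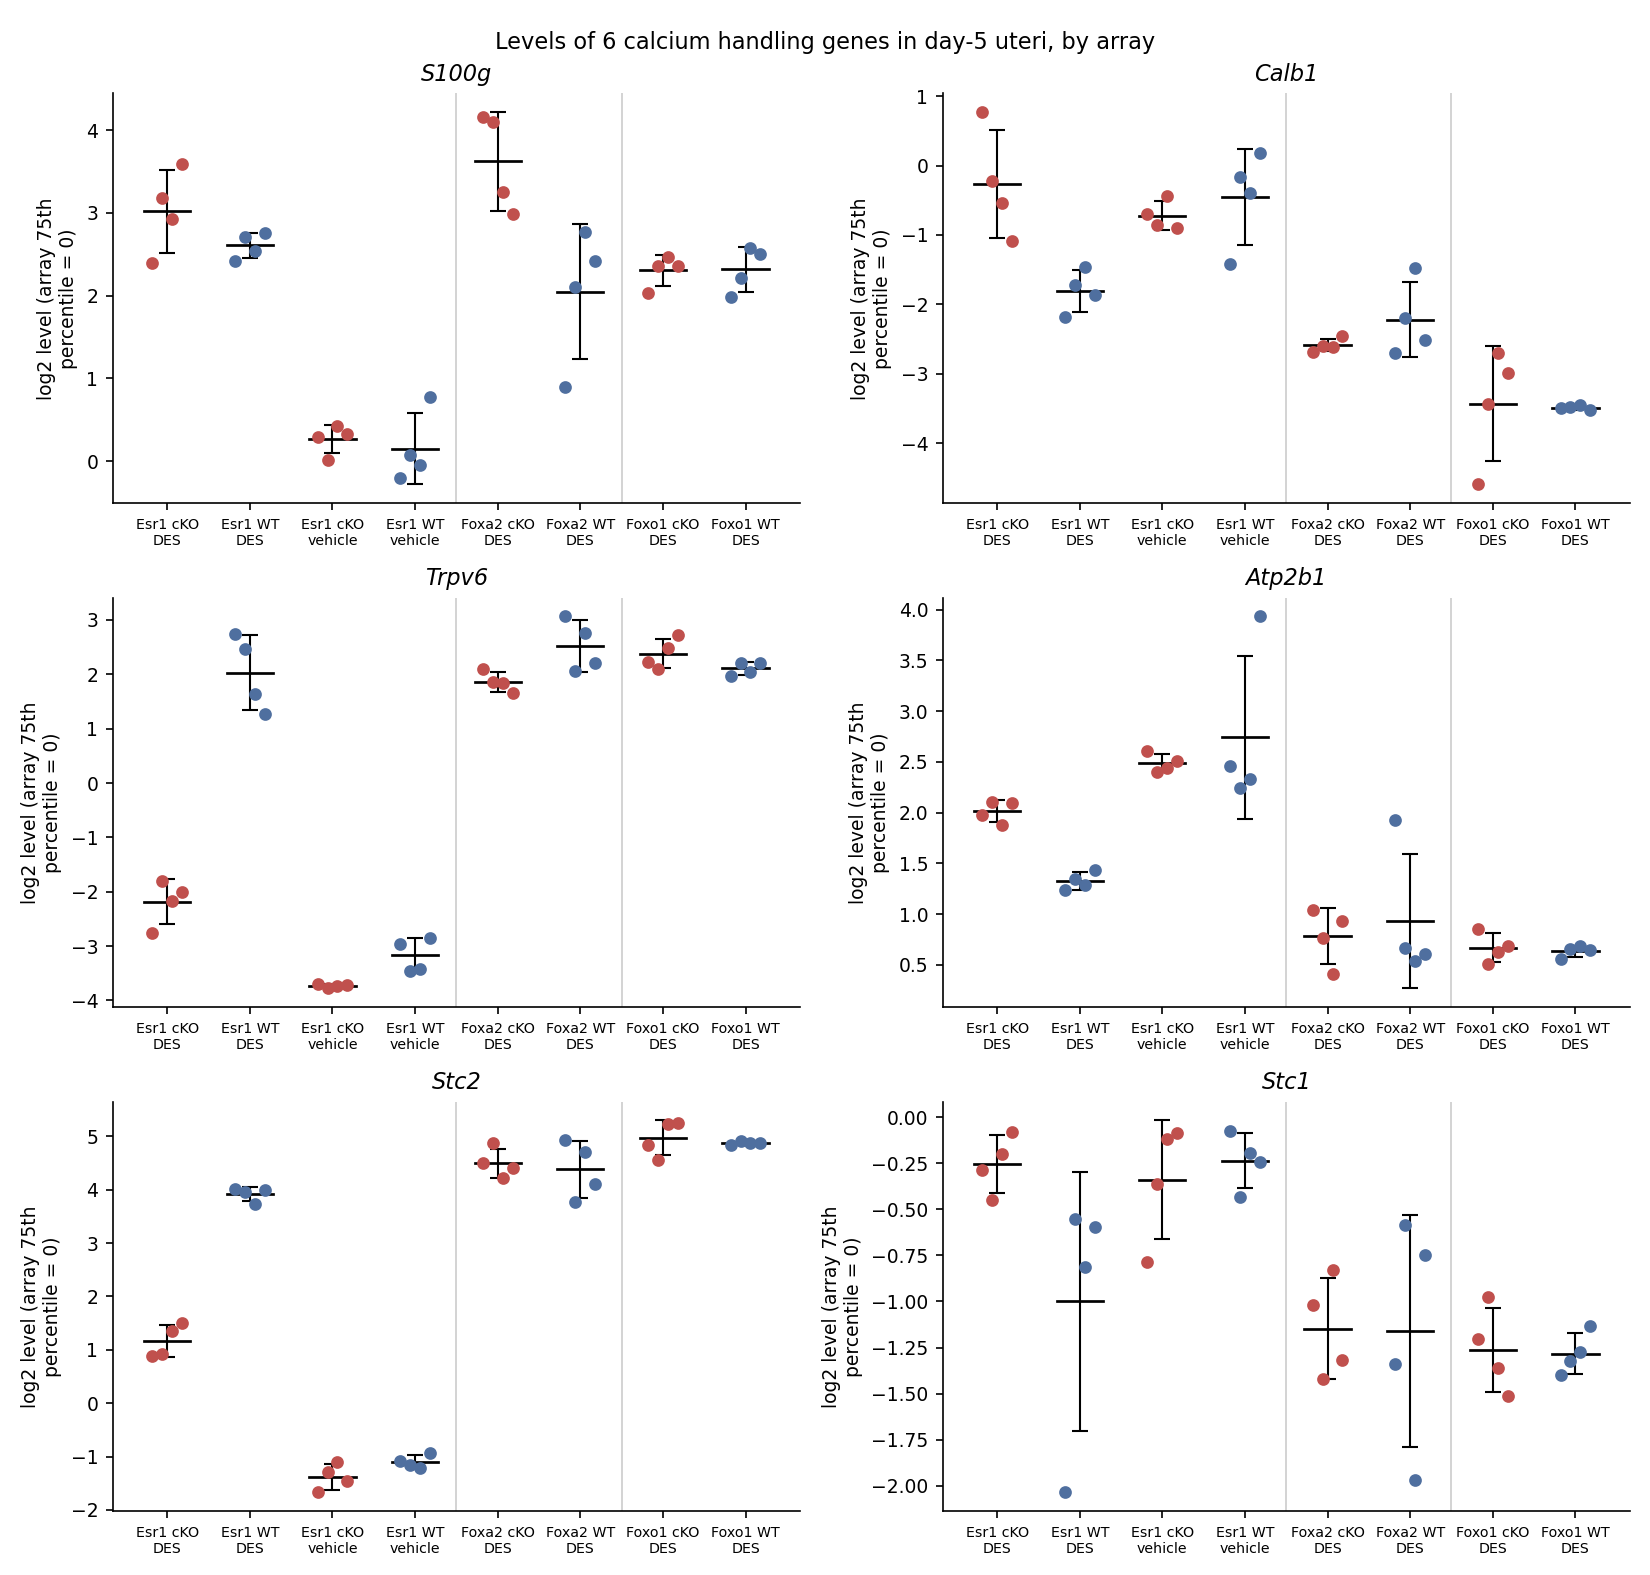
Level of each gene on every array (dots, 4 per group), with the group mean (line) and SD (bar), as log2 intensity relative to the array's 75th percentile, for knockout (red) and wild-type (blue) groups. Trpv6 and Stc2 stand apart between the DES-treated Esr1 knockout and wild type, whereas S100g overlaps between them, and Atp2b1 has 1 far array in each of the Esr1 wild-type vehicle and Foxa2 wild-type groups, at 3.94 and 1.93.

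Trpv6, a highly calcium-selective channel of the plasma membrane, stood at 2.75, 2.46, 1.65 and 1.27 on the 4 wild-type arrays after DES, against -2.95, -3.46, -3.43 and -2.84 after vehicle. The groups were far apart, by 5.20 ± 0.26 or 36.8-fold (adjusted p = 1.8e-15 from limma), and 5.31 without the pair of doubted arrays. In Esr1 cKO uteri it stood at -2.75, -1.80, -2.17 and -2.0 after DES, against a narrow range of -3.78 to -3.70 after vehicle. The groups did not overlap here either, but the rise was 1.55 ± 0.26 or 2.93-fold (adjusted p = 9.19e-05 from limma). The response in cKO was smaller than that in wild type by -3.65 ± 0.36 (adjusted p = 3.39e-08 from limma), and by -3.76 without the doubted arrays. After DES, Trpv6 in cKO was at 5.4% of the wild-type level, a difference of -4.21 ± 0.26 (adjusted p = 6.36e-13 from limma).

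Stc2, a secreted stanniocalcin, behaved in the same direction. Its level was 4.01, 3.96, 3.73 and 3.99 in wild type after DES, against -1.08, -1.17, -1.22 and -0.93 after vehicle. All 4 DES arrays lay far above the vehicle arrays, and the change was 5.02 ± 0.20 or 32.4-fold (adjusted p = 2.92e-17 from limma), and 5.08 without the doubted arrays. In Esr1 cKO it was 0.89, 0.92, 1.36 and 1.5 after DES, against -1.67, -1.28, -1.10 and -1.45 after vehicle. The knockout arrays after DES thus lay between the vehicle arrays and the wild-type DES arrays, with a rise of 2.54 ± 0.20 or 5.83-fold (adjusted p = 4.95e-10 from limma). The response differed between the genotypes by -2.48 ± 0.29 (adjusted p = 3.98e-07 from limma), or -2.53 without the doubted arrays, and DES-treated cKO uteri held 14.8% of the wild-type level (difference -2.75 ± 0.20, adjusted p = 3.67e-11 from limma).

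S100g, a cytosolic calcium buffer, rose in both genotypes. In wild type it was 2.42, 2.71, 2.54 and 2.75 after DES, against -0.20, 0.07, -0.05 and 0.77 after vehicle, a change of 2.46 ± 0.31 or 5.5-fold (adjusted p = 1.94e-07 from limma), and 2.67 without the doubted arrays. In Esr1 cKO it was 2.39, 3.18, 2.92 and 3.59 after DES, against 0.29, 0.02, 0.42 and 0.33 after vehicle, a change of 2.76 ± 0.31 or 6.76-fold (adjusted p = 2.32e-07 from limma). The DES arrays lay above the vehicle arrays in each genotype, and the cKO and wild-type arrays overlapped within each treatment. A difference in response between the genotypes was not detected, at 0.30 ± 0.44 with a 95% interval from -0.60 to 1.19 (adjusted p = 0.66 from limma).

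Over the 6 genes, DES gave 3 calls in Esr1 cKO uteri, all higher, against a background of 8.98% of all genes called, 6.39% higher and 2.58% lower. The change in response between the genotypes was called for 3 of 6 genes, Calb1 with a positive and Trpv6 and Stc2 with a negative difference. Of all genes, 27.3% were called there, 15.4% positive and 11.9% negative (11.5% and 13.4% under median scaling).

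**Figure D2:**
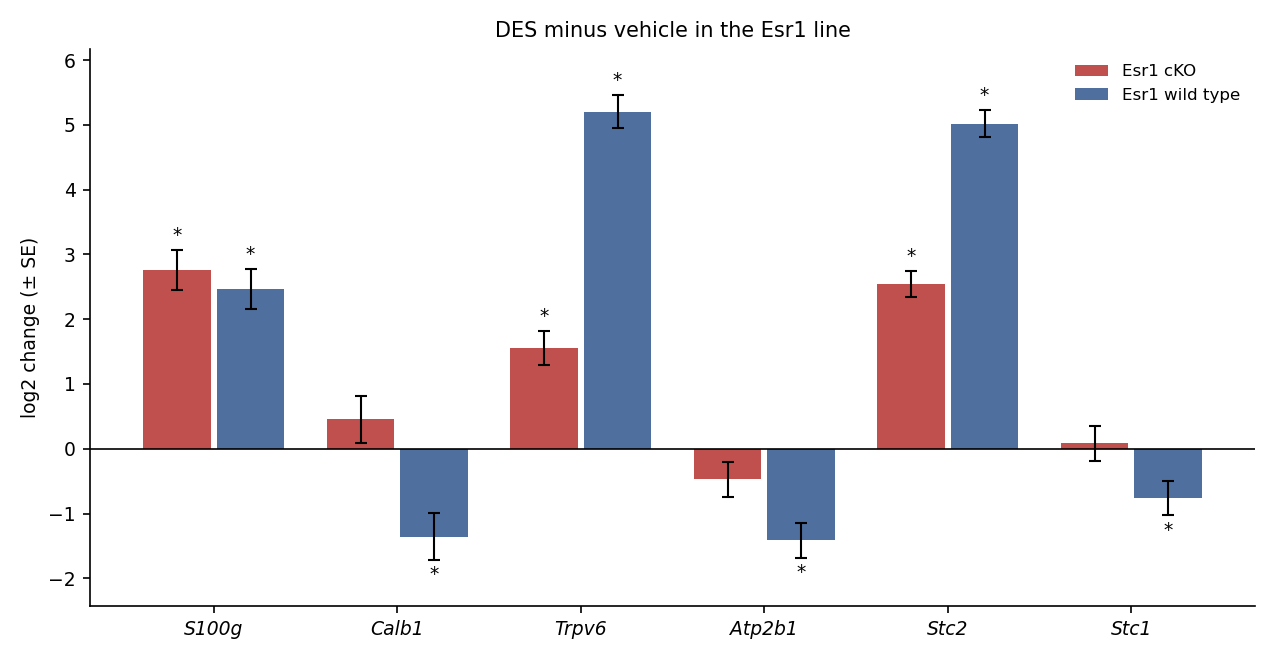
Change with DES (log2, DES minus vehicle ± SE, 4 arrays per group) of the 6 genes in the Esr1 knockout (red) and wild type (blue), with an asterisk where the adjusted p is under 0.05. The bars of S100g are alike in height (2.76 and 2.46), those of Trpv6 are not (1.55 and 5.20), and Calb1 points upward in the knockout (0.45, not called) and downward in wild type (-1.36).

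Calb1, the larger calbindin and likewise a cytosolic buffer, went the other way from S100g in wild-type uteri. On its brightest probe it was -2.18, -1.72, -1.46 and -1.86 after DES, against -1.42, -0.17, -0.40 and 0.19 after vehicle, with the lowest vehicle array just above the highest DES array. The change was -1.36 ± 0.36, that is 2.56-fold lower (adjusted p = 0.00237 from limma), and -1.14 without the doubted arrays. In Esr1 cKO it was 0.77, -0.22, -0.54 and -1.09 after DES, against -0.70, -0.85, -0.43 and -0.90 after vehicle. These groups overlapped, and the change of 0.45 ± 0.36 was not called (adjusted p = 0.586 from limma). The responses differed by 1.81 ± 0.51 (adjusted p = 0.00872 from limma), and by 1.60 (adjusted p = 0.0146) with the doubted arrays left out, and after DES Calb1 was 2.9-fold higher in cKO than in wild type (1.54 ± 0.36, adjusted p = 0.0014 from limma). All 10 Calb1 probes agreed in direction and call for the fall in wild type (-1.55 to -1.36) and for the difference in response (1.73 to 2.07).

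Atp2b1 encodes a plasma membrane pump that exports calcium. Its level was 1.24, 1.35, 1.29 and 1.44 in wild type after DES, against 2.46, 2.24, 2.34 and 3.94 after vehicle. The fourth vehicle array, the one at 551, stood well above the other 3. The fall of -1.41 ± 0.27 (2.67-fold lower, adjusted p = 8.03e-05 from limma) became -1.02 without the doubted arrays and was still called (adjusted p = 2.24e-08). In Esr1 cKO the level was 1.97, 2.11, 1.88 and 2.09 after DES, against 2.61, 2.40, 2.44 and 2.51 after vehicle. These groups did not overlap, as was so for 30.8% of all genes, yet the change of -0.47 ± 0.27 was not called (adjusted p = 0.365 from limma).

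Other Atp2b1 comparisons changed their call with the doubted arrays. The difference in response, 0.94 ± 0.38, had an adjusted p of 0.0674, and the difference after DES, 0.69 ± 0.27 in cKO over wild type, had 0.055 (both limma). Without the doubted arrays these were 0.54 (adjusted p = 0.0056) and 0.69 (adjusted p = 4.91e-06), and the change in cKO was -0.47 (adjusted p = 0.00139). The backgrounds without these arrays were 42.4%, 47.9% and 20.7% of all genes called. With all arrays and quantile normalization, Atp2b1 was also called for the difference in response (0.92, adjusted p = 0.018) and for the difference after DES (0.78, adjusted p = 0.00375). All 4 Atp2b1 probes fell with DES in wild type (-2.50 to -1.03, all called), and 2 of 4 gave a called difference in response.

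Stc1, the second stanniocalcin, had the smallest change of the 6 genes in wild type. It was -2.04, -0.55, -0.82 and -0.60 after DES, against -0.08, -0.43, -0.19 and -0.25 after vehicle. The lowest DES array stood far below the other 3. The change of -0.76 ± 0.27 (1.7-fold lower, adjusted p = 0.0178 from limma) was -0.77 without the doubted arrays (adjusted p = 0.026), -0.42 without that array (adjusted p = 0.144), -0.51 under median scaling (adjusted p = 0.0888), and lost its call with only the compared groups in the fit (adjusted p = 0.0788). In Esr1 cKO it was -0.29, -0.45, -0.20 and -0.08 after DES, against -0.79 to -0.08 after vehicle, overlapping, with a change of 0.08 ± 0.27 (adjusted p = 0.938 from limma). A difference in response between the genotypes was not called for Stc1, at 0.85 ± 0.38 (adjusted p = 0.0965 from limma). After DES it was 0.74 ± 0.27 higher in cKO than in wild type (adjusted p = 0.0337 from limma), a call that was also lost without the same wild-type array (0.40, adjusted p = 0.235), without replicate 1, 3 or 4 of the cKO group (adjusted p = 0.0584 to 0.0845) and with only the compared groups in the fit (adjusted p = 0.0773). The 3 Stc1 probes all fell with DES in wild type (-1.13 to -0.73, all called). For cKO over wild type after DES 2 of the 3 were called (0.70 to 1.21 over all 3). For the difference in response 1 was called (0.83 to 1.33 over all 3).

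**Figure D3:**
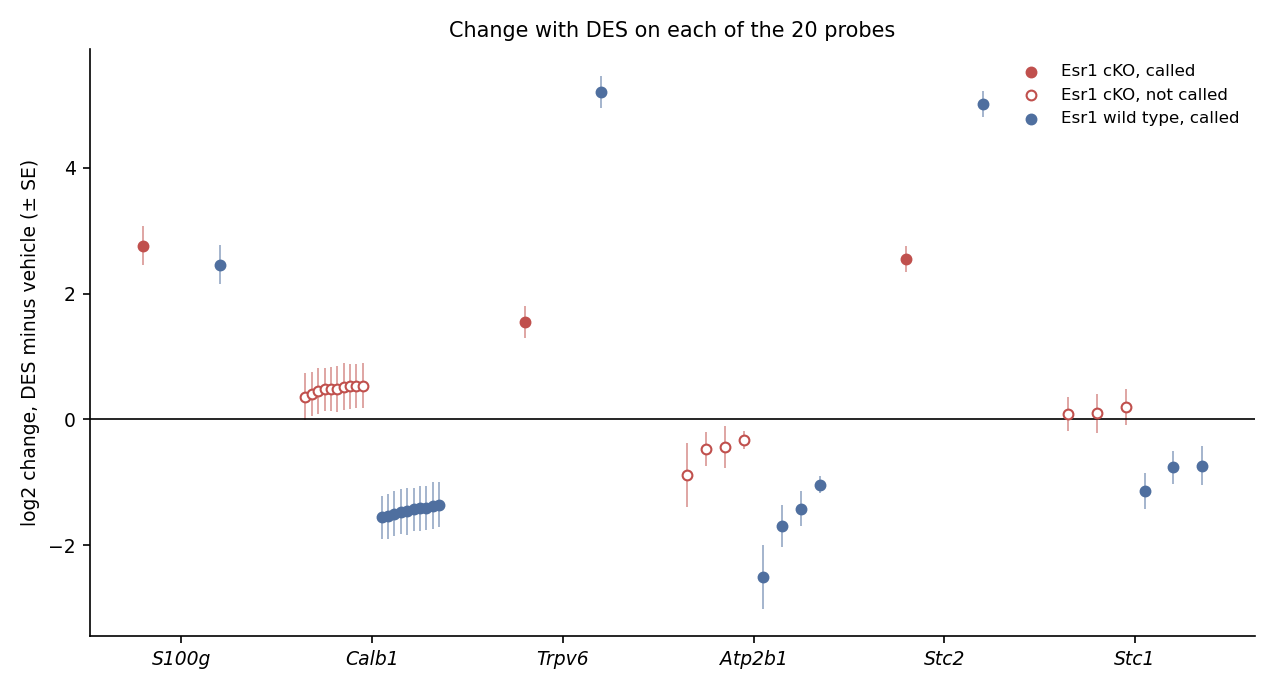
Change with DES (log2, DES minus vehicle ± SE) on each of the 20 probes in the Esr1 knockout (red) and wild type (blue), filled where the adjusted p over all probes is under 0.05 and open where it is not. In wild type every probe of Calb1, Atp2b1 and Stc1 lies below 0, and in the knockout the open circles of Calb1 lie between 0.36 and 0.54.

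Without DES, no difference by Esr1 genotype passed the test. None of the 6 was called between vehicle-treated cKO and wild-type uteri by limma (7.48% of all genes were), and 1 of them, Trpv6, had an unadjusted p under 0.05. Trpv6 was -0.56 ± 0.26 (95% interval -1.09 to -0.03, adjusted p = 0.222) and its arrays did not overlap, at -3.78 to -3.70 in cKO and -3.46 to -2.84 in wild type, as was so for 16% of all genes. Without the doubted array the differences of the 6 genes ran from -0.45 to 0.33, and none was called. After DES, 4 of the 6 were called between the genotypes, Trpv6 and Stc2 lower and Calb1 and Stc1 higher in cKO, where 30.5% of all genes were called, 16.6% higher and 13.9% lower, and 47% did not overlap. S100g was at 0.41 ± 0.31 there (95% interval -0.22 to 1.05, adjusted p = 0.347).

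Cell-type markers moved with the same groups. Of 8 epithelial markers, 7 were higher and none lower with DES in wild type, 2 were higher in Esr1 cKO, and 5 were lower in cKO than in wild type after DES. Their summed log2 level was 7.47 to 7.90 in cKO and 8.27 to 8.53 in wild type after DES, and 7.09 to 7.17 in cKO and 7.15 to 7.93 in wild type after vehicle. All 5 smooth muscle markers fell with DES in wild type, and none was called in cKO. Of 6 leukocyte markers, 4 were higher with DES in wild type and 3 in cKO, and 2 were lower in cKO than in wild type after DES, with summed levels of 2.99 to 3.75 in cKO and 3.88 to 4.54 in wild type after DES, and 1.96 to 2.16 in cKO and 1.84 to 3.29 in wild type after vehicle. Of 4 endothelial markers, 2 were lower with DES in wild type and none was called in cKO, with summed levels of 2.77 to 3.06 in cKO and 2.38 to 2.75 in wild type after DES, and 3.32 to 3.54 in cKO and 3.11 to 4.42 in wild type after vehicle. The part of these shifts in the changes of the 6 genes was not tested, and in whole uteri fewer cells of a type and less RNA per cell cannot be told apart. Of 6 intestinal markers, 2 or 3 lay under the floor on each array of the Esr1 line, with Cdx2, an intestinal transcription factor, under it on all 16, and the summed level ran from -2.02 to -1.63 in DES-treated cKO and from -2.79 to 0.14 in DES-treated wild type, against -1.89 to 0.74 in vehicle-treated cKO and -1.49 to -1.05 in vehicle-treated wild type. Of 4 kidney markers, 3 lay under the floor on every DES-treated array of that line, and the summed level was -4.36 to -3.40 in cKO and -1.57 to -1.10 in wild type after vehicle.

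Loss of Foxa2 under DES raised S100g and gave no other call among the 6 genes, against a background of 2.21%, 1.11% higher. S100g was 4.15, 4.10, 3.25 and 2.98 in Foxa2 cKO and 0.89, 2.11, 2.77 and 2.42 in wild type. The groups did not overlap, as was so for 5.43% of all genes, and differed by 1.57 ± 0.31 or 2.98-fold (adjusted p = 0.00387 from limma). Without the wild-type array at 9024, which was the lowest, the difference was 1.19 (adjusted p = 0.0065 without both doubted arrays). Replicates 1 and 2 of the Foxa2 and Foxo1 lines also stood apart from replicates 3 and 4 in their lowest intensity per array, 3.59 to 14.9 against 1.87 to 2.44. Within replicates 1 and 2 S100g differed by 2.63 (adjusted p = 0.00128) and within replicates 3 and 4 by 0.52 (adjusted p = 0.541). The call also ended when only the 2 Foxa2 groups entered the fit (adjusted p = 0.615).

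No other gene of the 6 was called by Foxa2 genotype. Trpv6 was 2.10, 1.85, 1.85 and 1.65 in Foxa2 cKO and 3.07, 2.06, 2.75 and 2.20 in wild type. Its difference of -0.66 ± 0.26 had a 95% interval from -1.19 to -0.13 and was not called (adjusted p = 0.19 from limma). Stc2 ran from 4.22 to 4.87 in cKO and from 3.78 to 4.93 in wild type, a difference of 0.12 ± 0.20, and the differences of Calb1, Atp2b1 and Stc1 were -0.37, -0.14 and 0.01. Without the doubted arrays the differences were -0.48 for Trpv6, 0.30 for Stc2 and -0.52 for Calb1, and those of Atp2b1 and Stc1 turned sign, to 0.19 and -0.05, with none of the 5 called.

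Loss of Foxo1 under DES gave no call by limma among the 6 genes, none of which had an unadjusted p under 0.05, where 0.222% of all genes were called. Trpv6 was 2.23, 2.10, 2.48 and 2.72 in Foxo1 cKO and 1.98, 2.21, 2.05 and 2.21 in wild type. Stc2 was 4.84, 4.56, 5.23 and 5.25 in cKO and 4.84, 4.91, 4.88 and 4.88 in wild type. S100g was 2.03, 2.36, 2.47 and 2.35 in cKO and 1.98, 2.21, 2.57 and 2.51 in wild type. All 3 overlapped between the genotypes, and the differences of the 6 genes ran from -0.01 to 0.27 on the probe that stood for each gene. The other 9 Calb1 probes were at -0.46 to -0.14. The 4 Atp2b1 probes ran from -0.07 to 0.75 and the 3 Stc1 probes from -0.10 to 0.02, and no probe was called. The intervals still allow changes, for S100g from -0.65 to 0.62 and for Trpv6 from -0.25 to 0.80.

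**Figure D4:**
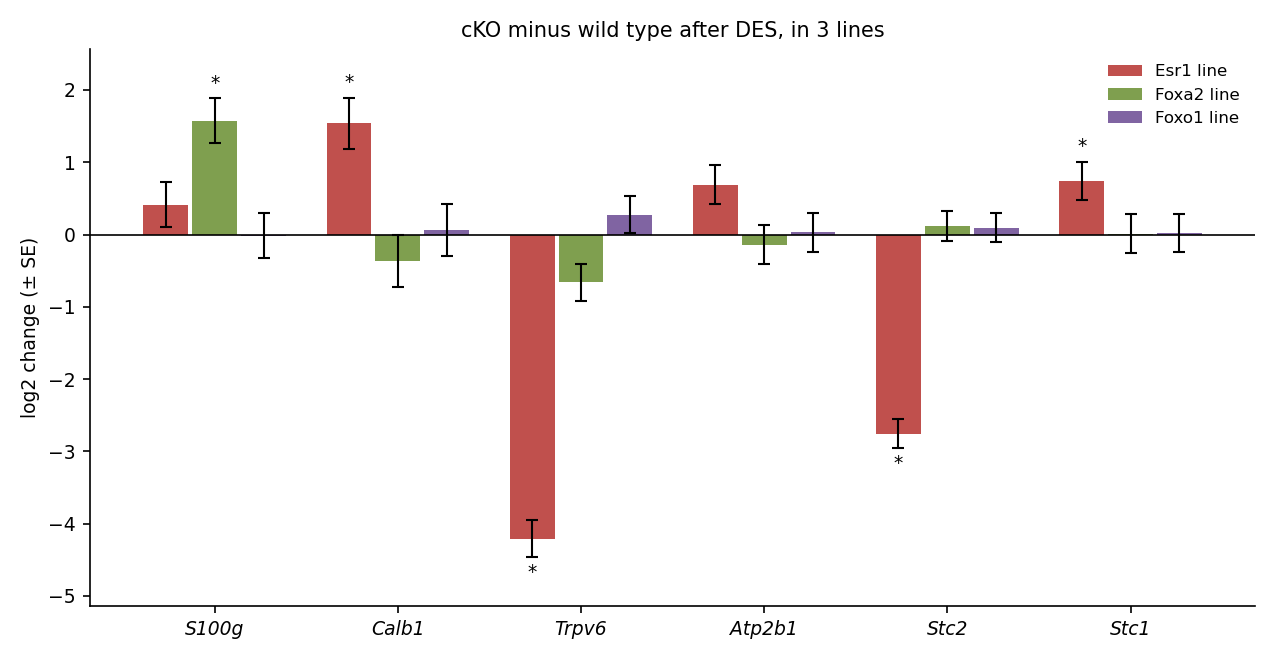
Difference between knockout and wild type after DES (log2, cKO minus wild type ± SE, 4 arrays per group) for the 6 genes in the Esr1, Foxa2 and Foxo1 lines, with an asterisk where the adjusted p is under 0.05. Trpv6 (-4.21) and Stc2 (-2.75) are far below 0 in the Esr1 line and between -0.66 and 0.27 in the other lines, and S100g is highest in the Foxa2 line (1.57).

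The knockout effects themselves were compared between the lines. Foxa2 was also lower in DES-treated Esr1 cKO (-3.26), and the part of that fall in the Esr1 effects was not tested. For Trpv6 the Foxa2 effect exceeded the Esr1 effect by 3.55 ± 0.36 and the Foxo1 effect exceeded it by 4.48 ± 0.36 (adjusted p = 5.4e-08 and 6.1e-10 from limma). For Stc2 these were 2.87 ± 0.29 and 2.85 ± 0.29 (adjusted p = 4.24e-08 and 3.12e-08 from limma). For Calb1 they were -1.90 ± 0.51 and -1.48 ± 0.51 (adjusted p = 0.00795 and 0.0383 from limma). These 3 of 6 genes were called in each comparison, where 18.4% of all genes were called for Foxa2 and 19.6% for Foxo1, and both comparisons share the Esr1 arrays. Without the doubted arrays the Foxa2 differences were 3.73 for Trpv6, 3.05 for Stc2 and -2.06 for Calb1, all called, and Atp2b1 was called as well, at -0.50 for Foxa2 and -0.65 for Foxo1 (adjusted p = 0.0119 and 0.000874, backgrounds 33.8% and 37.4%). The Calb1 call for Foxa2 ended within replicates 1 and 2 (-1.73, adjusted p = 0.0591). The Calb1 call for Foxo1 ended with the replicate number as a block (adjusted p = 0.0604), under median scaling (adjusted p = 0.0501), within replicates 3 and 4 (-0.90, adjusted p = 0.305) and without any of 11 single arrays (-1.51 to -1.09, adjusted p = 0.0524 to 0.111), the largest shifts coming without replicate 1 of the Foxo1 cKO (-1.09) or of the Esr1 cKO (-1.13). These values are for the brightest Calb1 probe, and the other 9 probes had larger differences, -2.0 to -1.71, all called with all arrays.

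For S100g the Foxa2 effect was above the Esr1 effect by 1.16 ± 0.44 (adjusted p = 0.0653) and the Foxo1 effect was -1.59 ± 0.44 relative to the Foxa2 effect (adjusted p = 0.0876, both limma). Neither passed, so the rise of S100g with loss of Foxa2 was not shown to differ from the other lines by this fit. The difference from Esr1 was called with array weights (0.78, adjusted p = 0.0323), within replicates 1 and 2 (2.21, adjusted p = 0.00233), and without Foxa2 wild type replicate 3 (1.40, adjusted p = 0.0209), Foxa2 cKO replicate 4 (1.37, adjusted p = 0.0301) or Esr1 cKO replicate 4 (1.35, adjusted p = 0.0348). The difference from Foxo1 was called with array weights (-1.14, adjusted p = 0.0101), within replicates 1 and 2 (-2.53, adjusted p = 0.0418) and without Foxa2 wild type replicate 3 (-1.83, adjusted p = 0.0292). Between the Foxo1 and Foxa2 effects none of the 6 genes was called, 2 had an unadjusted p under 0.05, and the background was 0.957%.

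The DES-treated wild-type groups of the 3 lines were set beside each other as a measure of the spread between lines. Their arrays differed too, with the floor at -6.45 to -6.36 in Esr1 wild type and -5.58 to -5.02 in Foxo1 wild type. Differences between lines and between their sets of arrays cannot be told apart here. None of the 6 genes was called between Foxa2 and Esr1 wild types (1 had an unadjusted p under 0.05), although 35.3% of all genes were, and Atp2b1 was called without the doubted arrays (-0.73, adjusted p = 1.16e-05, background 49.7%). With all arrays the 4 Atp2b1 probes ran from -0.84 to -0.18 there, and 2 of them were called. Between Foxo1 and Esr1 wild types 3 were called, against 35.2% of all genes: Stc2 at 0.96 ± 0.20 (adjusted p = 0.000591), Calb1 at -1.68 ± 0.36 (adjusted p = 0.000565) and Atp2b1 at -0.69 ± 0.27 (adjusted p = 0.0472, all limma). The Atp2b1 call was lost without any single array of either group (adjusted p = 0.0664 to 0.0975). Its 4 probes ran from -0.69 to -0.36, and 1 of them was called. Calb1 was -3.49, -3.48, -3.45 and -3.52 in Foxo1 wild type and -2.18, -1.72, -1.46 and -1.86 in Esr1 wild type, a gap of -1.68 between wild types beside the DES change of -1.36 in the Esr1 line.

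Over the 8 groups, Trpv6 was highest in Foxa2 wild type (2.52 ± 0.47, SD, n = 4). The 5 groups with DES and intact Esr1 overlapped from neighbour to neighbour, down to 1.86 ± 0.18 in Foxa2 cKO. Then came a gap to Esr1 cKO after DES (-2.18 ± 0.41), and the vehicle groups followed without overlap. Stc2 had the same division, with the same 5 groups from 3.92 to 4.97, Esr1 cKO after DES at 1.17 ± 0.31, and the vehicle groups at -1.38 and -1.10. S100g had its only gap between neighbours in order at treatment, with 6 DES groups from 2.05 to 3.62 that overlapped in order and vehicle groups at 0.26 and 0.15. Calb1 and Stc1 were highest in the vehicle groups and DES-treated Esr1 cKO, whose means lay between -0.72 and -0.27 for Calb1 and between -0.34 and -0.24 for Stc1.

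Across the 32 arrays the level of Trpv6 followed that of Stc2 (Pearson r = 0.977), and S100g followed them less closely (0.632 with Trpv6 and 0.719 with Stc2). Calb1 ran against Trpv6 (-0.817) and Stc2 (-0.821). These are descriptions over arrays that share the groups and the DES contrast. The genes whose levels ran most like each were Kcnn4 (0.995), Padi2 and Tjp3 for Stc2, Hsd17b11 (0.989), Slc28a3 and Pglyrp1 for Trpv6, and St6galnac5 (0.913), Tm4sf5 and Ppp2r2b for S100g. For Atp2b1 they were Ubfd1 (0.972), Birc2 and Ccnd1, for Calb1 Ttc8 (0.919), Lypd6b and Rplp2-ps1, and for Stc1 Car11 (0.886), Prkar1b and Zfp112.

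Other genes of calcium transport were drawn from a list of 60, of which 54 were on the array and 50 were tested. This list too was chosen with earlier results of these data known. With DES in wild type, 16 were higher and 11 lower, a share of called genes near the background of 51.8%. In Esr1 cKO 4 were higher and 1 lower, where 8.98% of all genes were called. The responses differed for 15 of the 50, of which 8 differences were positive and 7 negative, where 27.3% of all genes were called, so these shares too lie near the background. The counts without the doubted arrays were 36 called in wild type, 12 in cKO and 25 for the difference in response, where 63.2%, 20.7% and 42.4% of all genes were called.

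Atp2c2, a calcium and manganese pump of the secretory pathway, had the largest change on the list. Its mean level was 3.55 in DES-treated and -4.16 in vehicle-treated wild type, a rise of 7.71 ± 0.32 or 209.6-fold (adjusted p = 4.6e-17 from limma), and in Esr1 cKO it rose by 4.66 ± 0.32 or 25.3-fold (adjusted p = 2.08e-11). The difference in response was -3.05 ± 0.45 (adjusted p = 1.3e-05 from limma). Ramp3, a partner protein of calcitonin-family receptors, rose by 3.53 in wild type and 1.57 in cKO, with a difference of -1.96 ± 0.34 (adjusted p = 0.000103 from limma). Trpv4, a channel related to Trpv6, rose by 1.70 ± 0.20 in wild type (adjusted p = 4.82e-08) and was at 0.55 ± 0.20 in cKO (adjusted p = 0.0877). Kl, the klotho co-receptor gene, was under the floor on all vehicle arrays of the wild type and rose by at least 0.58. Its fitted change, which uses the values under the floor, was 2.14 (adjusted p = 1.87e-06 from limma).

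Among genes lowered by DES in wild type were Cacna1d, a voltage-gated calcium channel (-2.57 ± 0.27), Itpr2, a calcium release channel of intracellular stores (-2.06 ± 0.27), and Slc8a1, a sodium-calcium exchanger (-1.88 ± 0.21), with adjusted p of 6.76e-09, 3.46e-07 and 3.65e-08 from limma. Atp2b3, another plasma membrane pump, fell to under the floor, which bounds its change at -1.49 or further. Its fitted change, which uses the values under the floor, was -3.41 (adjusted p = 8.8e-10 from limma). In Esr1 cKO Cacna1d was at -0.04, Itpr2 at -0.35 and Slc8a1 at 0.37, none of them called (adjusted p = 0.971, 0.561 and 0.38), and all 3 differences in response passed: 2.53 ± 0.38, 1.70 ± 0.38 and 2.25 ± 0.30 (adjusted p = 1.42e-05, 0.00134 and 3.22e-06 from limma). After DES, 9 of the 50 were higher and 10 lower in Esr1 cKO than in wild type, near the background of 30.5%. After vehicle only Casr, the calcium-sensing receptor, was called, under the floor in cKO and lower there by a bound of -0.45. Its fitted change, which uses the values under the floor, was -2.14 (adjusted p = 0.00371 from limma). Without the doubted arrays 4 of the 50 were called, where 8.83% of all genes were, against 7.48% in the main fit.

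By group of the list, DES in wild type changed 3 entry channels upward and 4 downward of 13 tested, 5 and 3 of 11 genes of intracellular stores and mitochondria, 3 and 2 of 10 hormone, receptor and vitamin D genes, 4 and 0 of 10 other calcium-binding proteins, and 1 and 2 of 6 other pumps and exchangers. Of all genes, 21.5% were higher and 30.3% lower there, and no group of the list was tested against these shares. In Foxa2 cKO uteri Trpm6, a magnesium-permeable channel, was higher (0.91 ± 0.21, adjusted p = 0.0176), and Trpv4 (-1.09 ± 0.20, adjusted p = 0.00168) and Vdr, the vitamin D receptor (-0.84 ± 0.20, adjusted p = 0.0193), were lower, by limma. These values include the Foxa2 wild-type array at 9024, and the Trpm6 arrays overlapped between the genotypes. With only the Foxa2 groups in the fit, none of the listed genes was called. No listed gene was called in Foxo1 cKO by limma, and 1 had an unadjusted p under 0.05. Of all genes, 2.21% were called in Foxa2 cKO and 0.222% in Foxo1 cKO.

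**Figure D5:**
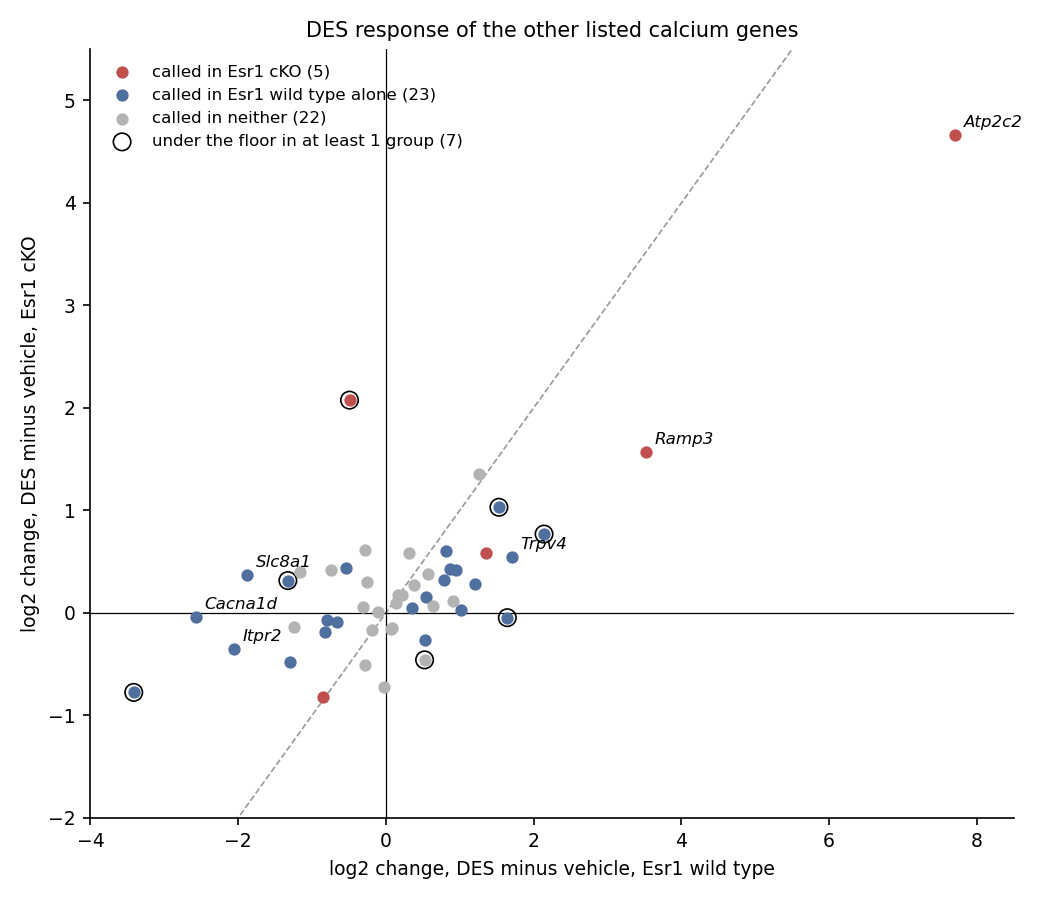
Change with DES (log2, DES minus vehicle) of the 50 listed genes in the Esr1 knockout (vertical axis) against wild type (horizontal axis), coloured by call and ringed where a gene was under the floor in at least 1 of the 4 groups (7 genes, whose fitted changes are shown), with equal changes on the dashed line. Atp2c2 lies far to the right, at 4.66 in the knockout and 7.71 in wild type, and over all 50 genes the changes run from -0.82 to 4.66 in the knockout and from -3.41 to 7.71 in wild type.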

How the data were processed

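The authors deposited a linear intensity for each probe on each array. The submitters' processing notes name Agilent Feature Extraction 12, while any background correction or scaling is not stated there. The deposited intensities were turned into log2 values, less the 75th percentile of their array. Probes above the array's 30th percentile (the floor) in at least 4 of 32 arrays were kept (36657 of 45018), and the kept probe with the highest mean stood for a gene. A gene under the floor on all arrays of a group has only a bound there, measured from the floor.

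All groups entered 1 limma 3.58.1 fit (R 4.3.3, 24 residual degrees of freedom), with Benjamini-Hochberg adjustment over 17145 genes, and in the probe-by-probe results over all kept probes. Differences between effects were contrasts of contrasts. The fit was tested on simulated data. The number of arrays limits the precision. Replicates are biological by the series design.

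The members and the lists were chosen with earlier results of these data known. Besides them, named genes are the 3 targeted genes, up to 4 called listed genes per direction and comparison, and 3 genes per member with the highest correlation. Symbols come from the platform annotation, updated through RefSeq gene IDs for 33517 probes. Xist, Cdx2 and the marker counts serve as checks.

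The main fit had no replicate block, so all values from it are unpaired. In the Foxo1 line same-numbered arrays deviated together in all 4 pairs (r = 0.29 to 0.38, from the data, not the labels). Replicate numbers entered only as a block within each line, as an alternative. In the Foxa2 line 2 of 4 pairs exceeded 0.1. Alternatives were other scalings, filters, probe rules, variance models, a replicate block, only the compared groups, other thresholds and leaving out arrays. Splitting replicates 1 and 2 from 3 and 4 was added after the data were seen.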

Additional observations from a re-analysis of the deposited data

Results flagged for a closer look

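Of 48 sets of 4 arrays (6 genes in 8 groups), 2 held an array far from the other 3, both for Atp2b1: Esr1 wild type, vehicle, replicate 4 at 3.94, against 2.24 to 2.46, and Foxa2 wild type, DES, replicate 1 at 1.93, against 0.53 to 0.66. Chance marks about 5% of such sets, and these are the arrays with the lowest and the highest 75th percentile of intensity. On the vehicle array, 10 of 12 marker lists had a summed level above that of the other 3 arrays and 2 below, for example endothelium at 4.42, against 3.11 to 3.47, and leukocytes at 3.29, against 1.84 to 2.17. On the Foxa2 array, 2 of 12 lay above and 7 below, with endothelium at 4.33, against 2.21 to 2.57. The part of these shifts in the Atp2b1 level was not tested.

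A further 3 genes had knockout or DES effects that differed between genotypes or lines by the test of the difference itself. The DES response in the Esr1 knockout minus that in wild type was -3.65 for Trpv6, -2.48 for Stc2 and 1.81 for Calb1. The knockout effect after DES in the Foxa2 line minus that in the Esr1 line was 3.55 for Trpv6, 2.87 for Stc2 and -1.90 for Calb1. The same for the Foxo1 line was 4.48, 2.85 and -1.48. The comparisons of lines share the Esr1 arrays.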

How the results depend on the processing

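No called value of the 6 genes changed sign under any alternative run. The DES changes of Trpv6, Stc2 and S100g in both Esr1 genotypes, and the differences in response of Trpv6, Stc2 and Calb1, kept direction and call under every alternative, with DES changes in wild type from 4.96 to 5.46 for Trpv6. Of the 6 genes called, the count between Foxa2 and Esr1 wild types was 1 instead of 0 with quantile normalization, the mean of a gene's probes, array weights, replicates 1 and 2 of the Foxa2 and Foxo1 lines only, or without both doubted arrays, and 0 to 1 leaving out single arrays. The count for the difference in response was 5 instead of 3 with the mean of a gene's probes. For the Foxa2 against the Esr1 effect it was 6 instead of 3 with array weights, and 3 to 5 leaving out single arrays. For the Foxo1 against the Foxa2 effect it was 1 instead of 0 with array weights or replicates 1 and 2 only, and 0 to 1 leaving out single arrays (1 without replicate 3 of the Foxa2 wild type). For Foxa2 cKO against wild type it was 0 instead of 1 with replicates 3 and 4 only or only the compared groups in the fit. For Foxo1 against Esr1 wild type it was 1 instead of 3 at a 2-fold minimum. Between Foxa2 and Esr1 wild types, 29.2% of all genes were called with quantile normalization and 49.7% without the doubted arrays, against 35.3% in the main fit. The other alternative counts in this paragraph were not set against a share of all genes.

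For the listed genes, DES in Esr1 cKO gave 5 calls, and 9 with median scaling, 21 with array weights, 3 at 2-fold, 16 with only the compared groups and 12 without both doubted arrays. DES in wild type gave 27, and 15 at 2-fold. The difference in response gave 15, and 30 with array weights, 8 at an adjusted p under 0.01, 24 with only the compared groups and 25 without the doubted arrays. After vehicle 1 was called between the Esr1 genotypes, and 0 with the filter at the array median, 5 with array weights, 2 with only the compared groups and 4 without the doubted arrays. After DES 19 were, and 31 with array weights and 12 at 2-fold. For Foxa2 it was 3, and 10 with array weights, 1 at an adjusted p under 0.01, 1 at 2-fold, 0 with only the compared groups, 5 without the doubted arrays and 1 to 4 leaving out single arrays. For Foxo1 it was 0, and 1 with median scaling, array weights, replicates 3 and 4 only or without the doubted arrays, and 0 to 1 leaving out single arrays. The causes were not tested. For DES in Esr1 cKO, 9.42% of all genes were called with median scaling and 20.7% without the doubted arrays, against 8.98% in the main fit. For the difference in response 42.4% were called without the doubted arrays, against 27.3%. Between the Esr1 genotypes after vehicle 8.83% were called without them, against 7.48%, and for Foxa2 3.41%, against 2.21%. For Foxo1 it was 0.647% without them and 0.227% with median scaling, against 0.222%. The counts with array weights, other thresholds, other filters, only the compared groups, fewer replicates or single arrays left out were not set against a share of all genes. They are given without a background here and are not results about the listed genes.

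With the replicate number as a block, the members called were 6 for DES in Esr1 wild type, 3 in cKO, 4 for the difference in response (Atp2b1 gained, adjusted p = 0.0446), 0 between the genotypes after vehicle and 4 after DES (Atp2b1 gained, adjusted p = 0.0354, and Stc1 lost, adjusted p = 0.0514). It gave 1 for Foxa2 and 0 for Foxo1, and 3 and 2 for the Foxa2 and Foxo1 effects against the Esr1 effect. The counts with the block were not set against a share of all genes. The block changed no call of the 6 genes in the Foxo1 cKO comparison, where same-numbered arrays deviated together.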
